A study of Mus musculus with 9 samples.

Results

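The nuclear genes for subunits of the respiratory chain and ATP synthase were followed along the mouse small intestine and across 3 high-fat diets. Members were chosen by gene symbol: names beginning Ndufa, Ndufb, Ndufc, Ndufs, Ndufv, Uqcr, Cox4 to Cox8 or Atp5, together with Sdha, Sdhb, Sdhc, Sdhd and Cyc1, without the Ndufaf assembly factors and pseudogenes. This gave 83 of the 18193 genes with a probe set of a single symbol, of which 35 belong to complex I, 4 to complex II, 9 to complex III, 18 to complex IV and 17 to complex V. Ndufa4 was placed in complex IV, where its protein is now assigned.

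Complexes I and II pass electrons from NADH and succinate to ubiquinone, complex III passes them on to cytochrome c, and complex IV, cytochrome c oxidase, passes them to oxygen. Complexes I, III and IV pump protons across the inner mitochondrial membrane, and complex V, the ATP synthase, uses the gradient to make ATP. All but complex II also hold subunits encoded by mitochondrial DNA, and the enterocyte, the absorptive cell that lines the villi, spends much of this ATP on nutrient transport.

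The animals were males of the inbred strain C57BL/6J, with no genetic change named in the labels, aged 9 weeks at the start and fed for 2 weeks on 1 of 3 high-fat diets. HF-PO had palm oil as its fat and the lowest P/S value in the labels, HF-OO had olive oil and the middle value, and HF-SO had safflower oil and the highest. The small intestine was cut into 3 equal parts, named SI1 (proximal), SI2 (middle) and SI3 (distal), and RNA of 6 mice was pooled for each diet and part and hybridised to 1 Affymetrix array, 9 arrays in all. Segments were therefore compared over 3 pools, while a diet has 1 array in each segment and no replicate. All groups had a high-fat diet, and the low-fat diet of the study was not analysed here. Array medians lay between 94.4 and 105.9 units of MAS5 signal. Precision is limited by how few arrays there are.

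Markers of the enterocyte were present in every segment, with summed signals of 8 genes from 204088 to 251524 in SI1 and from 202082 to 236421 in SI3. Of these genes 3 were called lower in SI3 (Fabp1 by -1.05, Lct by -0.75 and Alpi by -0.61) and 3 higher (Anpep by 0.64, Epcam by 0.41 and Fabp2 by 0.31). Markers of other cells also differed along the gut. The 6 pancreatic enzyme genes summed to between 27081 and 34552 in SI1 and to between 218.0 and 420.5 in the other segments, although the protocol removed pancreatic tissue. The 5 goblet and Paneth cell markers rose from 69292 to 71894 in SI1 to between 130789 and 141348 in SI3, and all were called higher. The 4 leukocyte markers had summed signals of 6856.1 to 6943.1 in SI1 and 2453.8 to 2738.2 in SI3, with 3 called lower and 1 higher. Smooth muscle markers summed to 3914.0 to 4220.0 in SI1 and 2776.0 to 3280.0 in SI3, and 5 of 6 striated muscle markers were below the signal filter. Adipocyte markers summed to 72.3 to 98.4 in SI1 and 279.3 to 384.4 in SI3, with Adipoq called higher (2.69) and Ucp1 and Cidea below the filter. Crypt proliferation markers summed to 3508.1 to 4549.3 in SI1 and 5271.8 to 6666.1 in SI3, with 3 called higher and 1 lower. Their part in the results on subunit genes was not tested. In scraped mucosa, fewer cells of a type and less RNA per cell cannot be told apart.

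Promoter sequences are shown for 4 subunit genes with large falls along the gut and for Cox6a1, whose strongest probe set did not fall, because factors known to regulate such genes bind near start sites. The 4 are not the largest falls, as Atp5md (-0.95) and Ndufa5 (-0.92), not shown, fell more than Ndufs5 (-0.88). Each sequence is the 250 bases before the start of the gene in RefSeq on GRCm38.p6, written 5′ to 3′ on the gene's own strand. Capitals mark matches, on either strand, to the binding motifs of nuclear respiratory factor 1 (NRF1; GCGC, any base, then TGCGC), ETS factors such as GABP (CCGGAAG) and estrogen-related receptors (ERR; AAGGTCA). Cox7a1 lies at chr7:30183921-30184170 on the plus strand. The others are on the minus strand, Ndufb10 at chr17:24724424-24724673, Ndufb6 at chr4:40279422-40279671, Ndufs5 at chr4:123718187-123718436 and Cox6a1 at chr5:115348959-115349208.
Cox7a1: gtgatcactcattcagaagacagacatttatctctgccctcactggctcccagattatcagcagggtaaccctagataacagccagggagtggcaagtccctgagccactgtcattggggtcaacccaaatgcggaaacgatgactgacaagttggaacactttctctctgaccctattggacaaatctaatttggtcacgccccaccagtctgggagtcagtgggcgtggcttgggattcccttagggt
Ndufb10: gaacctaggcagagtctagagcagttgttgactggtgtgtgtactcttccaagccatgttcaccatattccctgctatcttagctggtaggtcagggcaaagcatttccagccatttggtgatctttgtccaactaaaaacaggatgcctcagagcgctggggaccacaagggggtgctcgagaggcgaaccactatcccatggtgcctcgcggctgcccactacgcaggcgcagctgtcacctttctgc
Ndufb6: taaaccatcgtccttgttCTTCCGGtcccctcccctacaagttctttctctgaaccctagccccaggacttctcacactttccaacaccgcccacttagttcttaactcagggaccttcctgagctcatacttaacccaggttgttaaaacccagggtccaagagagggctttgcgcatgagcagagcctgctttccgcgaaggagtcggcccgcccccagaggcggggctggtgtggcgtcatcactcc
Ndufs5: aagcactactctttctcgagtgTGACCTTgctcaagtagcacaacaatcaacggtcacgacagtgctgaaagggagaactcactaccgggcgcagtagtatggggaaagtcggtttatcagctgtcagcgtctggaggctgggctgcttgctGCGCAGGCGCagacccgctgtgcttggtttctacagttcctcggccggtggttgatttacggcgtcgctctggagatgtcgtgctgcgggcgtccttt
Cox6a1: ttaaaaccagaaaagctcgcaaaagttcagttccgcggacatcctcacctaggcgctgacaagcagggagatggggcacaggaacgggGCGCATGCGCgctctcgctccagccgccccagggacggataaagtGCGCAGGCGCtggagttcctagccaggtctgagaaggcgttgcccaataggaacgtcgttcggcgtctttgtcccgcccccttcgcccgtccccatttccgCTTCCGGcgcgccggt

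The Cox7a1 and Ndufb10 windows held none of these motifs. The Ndufb6 window held 1 ETS match, and the Ndufs5 window held an ERR match and, from 98 to 89 bases before the start, an NRF1 match. Cox6a1 held 2 NRF1 matches and an ETS match that ended 10 bases before the start. RefSeq promoters were found for 67 of the 83 members. An NRF1 match was present in 11 of the 67 (16.4%), against 5.84% of the windows of 17492 protein-coding genes. ETS matches were present in 12 (17.9%, against 10.2% of all) and ERR matches in 5 (7.46%, against 4.18%). Among members that fell from SI1 to SI3, 6 of 44 held an NRF1 match (13.6%), and among those that did not pass the test, 4 of 18 did. ETS matches stood in 9 of the 44 (20.5%) and 3 of the 18. The letters do not show that a factor binds, and an absent match speaks only of this window.

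SI3 was set against SI1 to see how transcripts for the chain differ between the ends of the small intestine. Of 83 members, 78 passed the filter on low signal and were tested. From SI1 to SI3, 51 of them fell (65.4%), 2 rose and 25 did not pass the test, at an adjusted p under 0.05 (limma, Benjamini-Hochberg over 22519 probe sets). Over all tested probe sets 19.2% were called lower and 25% higher. The median log2 change over the tested members was -0.38, against 0.08 over all tested probe sets. The median was -0.33 in the HF-PO pool, -0.36 in HF-OO and -0.42 in HF-SO. In 60 members all 3 SI3 signals lay below all 3 SI1 signals, as they did in 23.5% of all tested probe sets, and the 51 that fell were all among them.

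**Figure D1:**
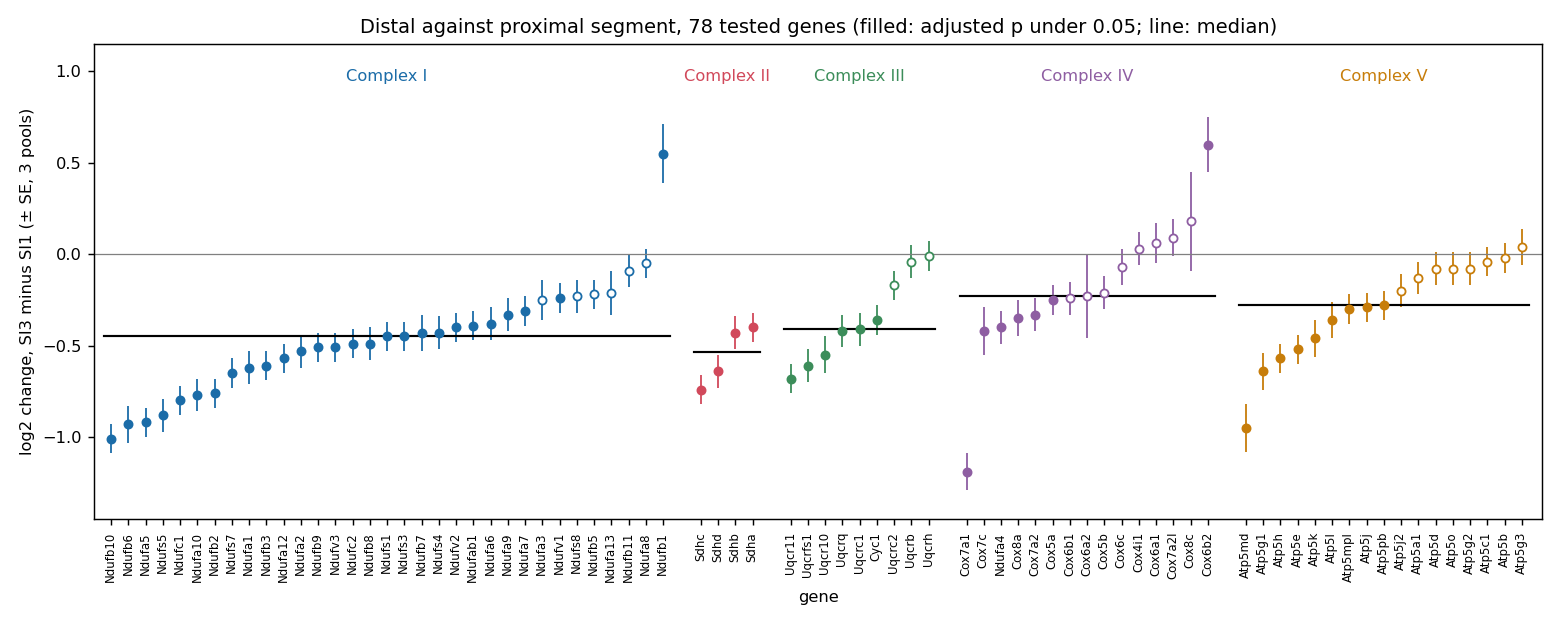
Log2 change between SI3 and SI1 for each of the 78 tested subunit genes, grouped by complex; points are the mean over 3 pools with the standard error, filled points passed the test and the line marks the median of a complex. Most genes of complexes I, II and III lie below 0, while several genes of complexes IV and V lie close to it.

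Complex II stood lowest as a group, with a median of -0.53 and 4 of 4 genes lower, followed by complex I with -0.45 (26 of 33 lower, 78.8%), complex III with -0.41 (6 of 9), complex V with -0.28 (9 of 17, 52.9%) and complex IV with -0.23 (6 of 15, 40%). The median of complex I was below that of complex V in each of the 3 pools, at -0.46, -0.42 and -0.50 against -0.20, -0.28 and -0.32. With 3 pools the smallest two-sided exact permutation p is 0.25, so this order is a description. It also moved with the processing: with the mean over a gene's probe sets complex II stood at -0.37 and complex I at -0.45, and quantile normalization put complex IV at -0.28 and complex V at -0.27. Without 1 pool the members called lower numbered 36 (HF-PO left out), 29 (HF-OO) or 32 (HF-SO), and without the signal filter 29. In these settings 14.9%, 12.1%, 14% and 7.6% of all probe sets were called lower, against 19.2% with every pool and the filter. The median over members was between -0.38 and -0.36 when a pool was left out. Of the 51, 28 kept the call whichever pool was left out, and 24 kept it under every alternative computed gene by gene: Ndufa1, Ndufa2, Ndufa5, Ndufa10, Ndufa12, Ndufb2, Ndufb3, Ndufb6, Ndufb10, Ndufc1, Ndufc2, Ndufs1, Ndufs3, Ndufs5, Ndufs7, Ndufv3, Sdhd, Uqcr10, Uqcr11, Uqcrfs1, Cox7a1, Atp5e, Atp5h and Atp5md.

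In complex I the fall reached both arms of the L-shaped enzyme. The peripheral arm carries the flavin and the iron-sulfur clusters in the matrix, and 13 of its 14 tested genes fell, with a median of -0.44. In the membrane arm 12 of 18 fell and 1 rose, with a median of -0.50. Ndufb10, a subunit of the membrane arm with disulfide bonds, had signals of 8466.9, 8176.7 and 8280.1 in SI1 for HF-PO, HF-OO and HF-SO in that order. They were 5434.4, 5587.7 and 5656.3 in SI2 and 3982.0, 4042.0 and 4324.2 in SI3. The 3 segments did not overlap, and Ndufb10 fell by 1.01 on the log2 scale (SE 0.08, adjusted p 0.000121) between the ends, with a fall at each step.

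Ndufb6, another accessory subunit of the membrane arm, gave 9049.6, 8299.7 and 8043.8 in SI1, 5980.0, 6344.7 and 6651.2 in SI2 and 4491.5, 3982.3 and 4835.3 in SI3. Again each segment lay wholly below the one before, and the change from SI1 to SI3 was -0.93 (SE 0.10, adjusted p 0.000516). Ndufa5, an accessory subunit of the peripheral arm, went from 7950.0, 7436.7 and 7499.2 in SI1 to 6186.0, 5674.5 and 5731.7 in SI2 and 4069.9, 3891.4 and 4120.0 in SI3. Its change was -0.92 (SE 0.08, adjusted p 0.000168), and its segments did not overlap. Ndufs5, Ndufc1, Ndufa10 and Ndufb2, all membrane-arm subunits, changed by -0.88, -0.80, -0.77 and -0.76.

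The core subunits of complex I, most of which hold redox cofactors, had changes from -0.65 to -0.23. Ndufs7, which holds the cluster next to the ubiquinone site, had signals of 6373.0, 6459.5 and 6445.6 in SI1, 5667.0, 5525.7 and 5392.5 in SI2 and 3951.3, 4052.5 and 4279.3 in SI3. The segments of Ndufs7 did not overlap, and its change was -0.65 (SE 0.08, adjusted p 0.000915). Ndufs1, the largest subunit of the peripheral arm, went from 4655.8, 4452.3 and 4529.7 in SI1 to 4192.6, 4052.5 and 3988.3 in SI2 and 3451.6, 3321.8 and 3218.3 in SI3, a change of -0.45 (adjusted p 0.00356). Ndufs3, near the ubiquinone site, and Ndufv2, which carries a cluster beside the flavin, changed by -0.45 (adjusted p 0.00402) and -0.40 (adjusted p 0.00577). Each of these genes was lower in SI3 in all 3 pools, and Ndufv2 lost its call without HF-OO (adjusted p 0.0716).

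Ndufv1, which binds NADH and the flavin, fell by 0.24 by the probe set used (adjusted p 0.0443), from 7475.2, 7954.2 and 7259.9 in SI1 to 6443.7, 6505.5 and 6239.8 in SI3. Its 2 other probe sets, of similar signal, changed by -0.57 and -0.61, and the call of the set used was lost with quantile normalization (adjusted p 0.0723) and with the arrays shifted to one median (adjusted p 0.112), without the signal filter (0.173) and without HF-PO (0.122), HF-OO (0.23) or HF-SO (0.15). Ndufs8, which holds a pair of iron-sulfur clusters, had a change of -0.23 that did not pass the test (adjusted p 0.0777), with SI1 at 9059.4, 9239.2 and 9629.6 and SI3 at 7429.1, 8097.7 and 8288.7. The SI1 and SI3 signals of both genes did not overlap. Other probe sets of Ndufs8 were called lower, by -0.52 (adjusted p 0.0202) at a mean signal of 8512.8 and by -0.31 (adjusted p 0.0354) at 7475.7. The rest of its tested sets had no call.

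The complex I probe set with the strongest signal was that of Ndufa1, a membrane-arm subunit. Ndufa1 gave 18497, 20203 and 20579 in SI1, 17367, 17702 and 16700 in SI2 and 13416, 12632 and 12447 in SI3, and fell by 0.62 (SE 0.09, adjusted p 0.0016). Its SI1 and SI3 pools were well apart. At the other end, Ndufb11 and Ndufa8, both of the membrane arm, had changes of -0.09 and -0.05 that did not pass the test, and the segments overlapped. Ndufb1 was the only complex I gene that rose (0.55, SE 0.16, adjusted p 0.0293), at signals of 152.7, 146.6 and 184.1 in SI1 and 189.7, 245.1 and 302.9 in SI3, and the call was lost without the signal filter (adjusted p 0.105) and without HF-OO (0.172) or HF-SO (0.0678).

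Complex II, succinate dehydrogenase, belongs to both the chain and the tricarboxylic acid cycle, and its 4 genes all fell. Sdhc, a membrane anchor that helps to hold the heme and bind ubiquinone, had signals of 10914, 11274 and 11104 in SI1, 8657.7, 8808.3 and 8548.9 in SI2 and 7014.5, 6360.2 and 6500.1 in SI3. Its segments did not overlap and its change was -0.74 (SE 0.08, adjusted p 0.000537). A second Sdhc probe set, with a mean signal of 2158.2, gave a change of 0.28 that did not pass the test, and with the mean over the probe sets the change was -0.23 (adjusted p 0.283).

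Sdhd, the other anchor, gave 11205, 10715 and 11873 in SI1, 10140, 9848.7 and 9324.5 in SI2 and 7731.6, 7166.2 and 6846.2 in SI3, a change of -0.64 (adjusted p 0.00151). Sdhb, the iron-sulfur subunit, went from 17777, 19129 and 20004 in SI1 to 16888, 17032 and 15373 in SI2 and 14484, 14188 and 13602 in SI3, a change of -0.43 (adjusted p 0.00894). Sdha, the flavoprotein that oxidises succinate, went from 12734, 13388 and 13724 in SI1 to 11895, 11379 and 11100 in SI2 and 10134, 10138 and 9901.8 in SI3, a change of -0.40 (adjusted p 0.00765). In all 3 genes the segments followed one another without overlap. The calls of Sdha and Sdhb were lost without the signal filter (adjusted p 0.054 and 0.0565), without HF-OO (0.0745 and 0.0784) and without HF-SO (0.0671 and 0.0681), and that of Sdha also with the mean over its probe sets (0.059). That mean took in an Sdha set below the filter, at a mean signal of 11.9.

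In complex III, 3 of 4 core genes and 3 of 5 small subunit genes fell. Uqcr11, a small subunit, changed by -0.68 (SE 0.08, adjusted p 0.000823), from 8609.9, 8118.8 and 8900.8 in SI1 to 6519.2, 6380.4 and 6333.6 in SI2 and 5073.3, 5381.8 and 5489.3 in SI3. Uqcrfs1, the Rieske iron-sulfur protein that takes electrons from ubiquinol, had signals of 15780, 16980 and 17141 in SI1, 14194, 13393 and 13524 in SI2 and 11544, 10833 and 10307 in SI3. Its change was -0.61 (SE 0.09, adjusted p 0.00178). Neither gene showed overlap between segments.

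Cyc1, cytochrome c1, which hands electrons to cytochrome c, gave 17385, 18310 and 19494 in SI1, 17139, 17364 and 16678 in SI2 and 13880, 14461 and 14704 in SI3, a change of -0.36 (adjusted p 0.012). The Cyc1 call was lost without the signal filter (0.0731) and without HF-PO (0.0504), HF-OO (0.0906) or HF-SO (0.0782). Uqcr10 and Uqcrq, both small subunits, changed by -0.55 and -0.42, and Uqcrc1, a core protein, by -0.41. Uqcrq and Uqcrc1 lost their calls without the filter (adjusted p 0.0522 and 0.0546) and without HF-OO (0.0752 and 0.081), Uqcrc1 also without HF-SO (0.0721) and Uqcrq with the mean over its probe sets (0.103). That mean took in Uqcrq sets below the filter, at mean signals of 61.2 and 29.6. The core protein Uqcrc2 had -0.17, which did not pass the test (adjusted p 0.117), and Uqcrh, the hinge protein, had -0.01. Uqcrb, a ubiquinone-binding subunit, had the strongest signal of all members, with 34352, 35718 and 39169 in SI1, 32845, 32975 and 30786 in SI2 and 36349, 35933 and 33864 in SI3. The SI1 and SI3 values overlapped, and the change was -0.04 (adjusted p 0.75).

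Complex IV held both the largest fall and the largest rise among the members. Cox7a1, an isoform best known from heart and skeletal muscle, had signals of 7149.3, 7050.6 and 8046.9 in SI1, 6152.2, 5681.4 and 5450.0 in SI2 and 3406.9, 3185.1 and 3097.7 in SI3. The segments did not overlap, SI3 was at 43.6% of SI1, and the change was -1.19 (SE 0.10, adjusted p 0.000134), most of it between SI2 and SI3 (-0.83). The 6 striated muscle markers had summed signals of 342.6 to 410.9 in SI1 and 265.8 to 364.5 in SI3, and their part in this change was not tested.

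The partner isoform Cox7a2, which most tissues use, gave 29627, 29814 and 32233 in SI1, 26870, 26788 and 25028 in SI2 and 24210, 24448 and 24034 in SI3, a change of -0.33 (SE 0.09, adjusted p 0.0178). Cox7a2l, a relative that takes part in supercomplexes of the chain, gave 4049.5, 4077.4 and 4808.9 in SI1 and 4036.2, 4773.6 and 5020.4 in SI3, with a change of 0.09 that did not pass the test (adjusted p 0.483). The Cox7a2 call was lost without the filter (adjusted p 0.0924) and without HF-PO (0.065), HF-OO (0.0981) or HF-SO (0.106). So 2 of these 3 related genes fell, and the segments of the third member of the family overlapped.

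Ndufa4 went from 9128.8, 9489.4 and 10107 in SI1 to 7099.9, 7263.2 and 7421.8 in SI3, a change of -0.40 (adjusted p 0.0114), while SI2 stood at 9381.8, 9504.9 and 8499.7. Cox8a, a small membrane subunit, changed by -0.35 (adjusted p 0.0249), from 9708.6, 10191 and 11995 in SI1 to 8090.0, 8258.6 and 8568.1 in SI3. The Cox8a call was lost with the mean over its probe sets (-0.20, adjusted p 0.11), without the filter (0.108) and without HF-PO (0.0629), HF-OO (0.117) or HF-SO (0.114), and that of Ndufa4 without the filter (0.0671) and without HF-PO (0.0501), HF-OO (0.0839) or HF-SO (0.0584). The Cox8a mean took in a set below the filter, at a mean signal of 83.1. Cox5a, a matrix-side subunit, changed by -0.25 (adjusted p 0.0398), a call lost with the arrays shifted to one median (adjusted p 0.0853), without the signal filter (0.161) and without HF-PO (0.153), HF-OO (0.221) or HF-SO (0.1). Another Cox5a probe set, at a mean signal of 21423.5, changed by -0.09 (adjusted p 0.445), and one at 17904.5 by -0.42 (adjusted p 0.00493). Cox7c was called lower (-0.42, adjusted p 0.0309) from a dim probe set, with 268.7 to 465.3 over the arrays, and lost the call with the mean over its probe sets (adjusted p 0.218), without the signal filter (0.114) and without the HF-PO (0.154) or HF-OO pool (0.121).

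Cox4i1, Cox6a1, Cox6b1, Cox5b and Cox6c did not pass the test. Cox4i1, the largest nuclear-encoded subunit of complex IV, had 23785, 25563 and 26474 in SI1 and 23675, 26694 and 26904 in SI3, and Cox6a1 had 26463, 29873 and 34142 in SI1 and 30968, 32754 and 29953 in SI3. Their changes were 0.03 and 0.06, with -0.07 and -0.00 after quantile normalization, and both pairs of segments overlapped. Cox6b1, on the side facing cytochrome c, gave 27135, 28372 and 30127 in SI1 and 24292, 24557 and 23841 in SI3, a change of -0.24 with no overlap that did not pass the test (adjusted p 0.0649). Cox5b and Cox6c had -0.21 and -0.07.

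Cox6b2, the isoform known from testis, was the only member called in opposite directions at the 2 steps, a pattern found in 1.23% of all tested probe sets. It had signals of 263.7, 276.8 and 229.6 in SI1, 685.7, 543.4 and 513.9 in SI2 and 562.2, 323.7 and 338.0 in SI3. All SI2 signals lay above all SI1 signals, and SI2 and SI3 overlapped through the HF-PO pool. The change was 1.12 from SI1 to SI2 (adjusted p 0.00519), -0.53 from SI2 to SI3 (adjusted p 0.0465) and 0.60 between the ends (SE 0.15, adjusted p 0.0164). The rise between the ends lost its call without HF-PO (0.37, adjusted p 0.0748) and without HF-SO (0.63, adjusted p 0.0825), and without the signal filter (adjusted p 0.0714). Summed signals of the haploid germ cell markers Prm1 and Tnp1 stayed between 55.5 and 168.1 over the arrays.

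Other tissue-restricted isoforms were dim. Cox6a2, of heart and skeletal muscle, had 117.2 to 238.7 over the 9 arrays and a change of -0.23 (adjusted p 0.457), and Cox8c, known from testis, had 241.8 to 531.4 and 0.18 (adjusted p 0.608). The 5 members below the filter were Cox4i2 (34.8 to 114.7), an isoform linked to low oxygen, Cox8b (2.8 to 49.5), Cox7b2 (1.0 to 23.5), Ndufa4l2 (30.7 to 172.5), a relative of Ndufa4 counted with complex I by its name, and Ndufb4 (16.5 to 45.9). They were not tested, and a probe set's signal does not give a gene's level relative to another gene.

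In complex V, 9 of 17 genes fell. Atp5md, a small membrane subunit of the synthase, had signals of 16570, 16254 and 17053 in SI1, 10667, 9531.8 and 9166.4 in SI2 and 10028, 9560.8 and 6686.3 in SI3. SI1 stood apart from the other segments, which overlapped, and the change was -0.95 (SE 0.13, adjusted p 0.00157), most of it from SI1 to SI2 (-0.77). Of the 5 membrane subunits outside the c-ring, 4 fell, with a median of -0.36, among them Atp5k (-0.46), Atp5l (-0.36) and Atp5mpl (-0.30). These 3 calls were lost without the signal filter (adjusted p 0.0597, 0.0987 and 0.114). With HF-PO, HF-OO and HF-SO left out in turn, the adjusted p was 0.0802, 0.101 and 0.0774 for Atp5l and 0.0651, 0.134 and 0.14 for Atp5mpl, and Atp5k lost its call without HF-OO (0.0763) or HF-SO (0.0519).

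The c-ring is the proton-driven rotor, made of a protein that 3 genes encode with the same mature sequence. Atp5g1 fell by 0.64 (SE 0.10, adjusted p 0.00277), from 9557.6, 7931.4 and 9148.4 in SI1 to 7392.2, 7461.3 and 6637.6 in SI2 and 5758.7, 5283.8 and 6050.4 in SI3. With the mean over its probe sets the adjusted p was 0.118, and its other set was below the signal filter (mean signal 24.0 against 7246.8). Atp5g3, the complex V probe set with the strongest signal, had 24845, 27845 and 31879 in SI1 and 29092, 28984 and 28156 in SI3, a change of 0.04 (-0.04 after quantile normalization). Atp5g2 had -0.08, and 0.27 with the mean over its probe sets. The other Atp5g2 sets in that mean were below the signal filter, at mean signals of 21.1 and 83.6 against 7116.3. Atp5g2 and Atp5g3 did not pass the test, and their segments overlapped. The difference between the 3 genes was not tested.

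The peripheral stalk holds the head still against the rotor, and 3 of its 4 genes fell. Atp5h changed by -0.57 (SE 0.08, adjusted p 0.00136), from 20647, 21641 and 21810 in SI1 to 16970, 17355 and 17714 in SI2 and 14447, 14021 and 14761 in SI3. Atp5j and Atp5pb changed by -0.29 and -0.28, and both calls were lost with the arrays shifted to one median (adjusted p 0.054 and 0.052) and without the signal filter (0.125 and 0.122). With HF-PO, HF-OO and HF-SO left out in turn, the adjusted p was 0.0623, 0.181 and 0.135 for Atp5j and 0.0686, 0.147 and 0.149 for Atp5pb.

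The head and central stalk had 1 of 5 genes lower, Atp5e of the central stalk (-0.52, adjusted p 0.00278), and a median of -0.08. Atp5b, the catalytic beta subunit, gave 24223, 27568 and 27854 in SI1, 24453, 25348 and 27864 in SI2 and 25919, 26014 and 26426 in SI3. Atp5a1, the alpha subunit, gave 20392, 21180 and 22751 in SI1 and 20248, 19440 and 18957 in SI3. Their changes were -0.02 (adjusted p 0.861) and -0.13 (adjusted p 0.255), and the segments of Atp5b overlapped. Other probe sets of Atp5a1 and Atp5d, described with the signal ranges, were called lower.

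**Figure D2:**
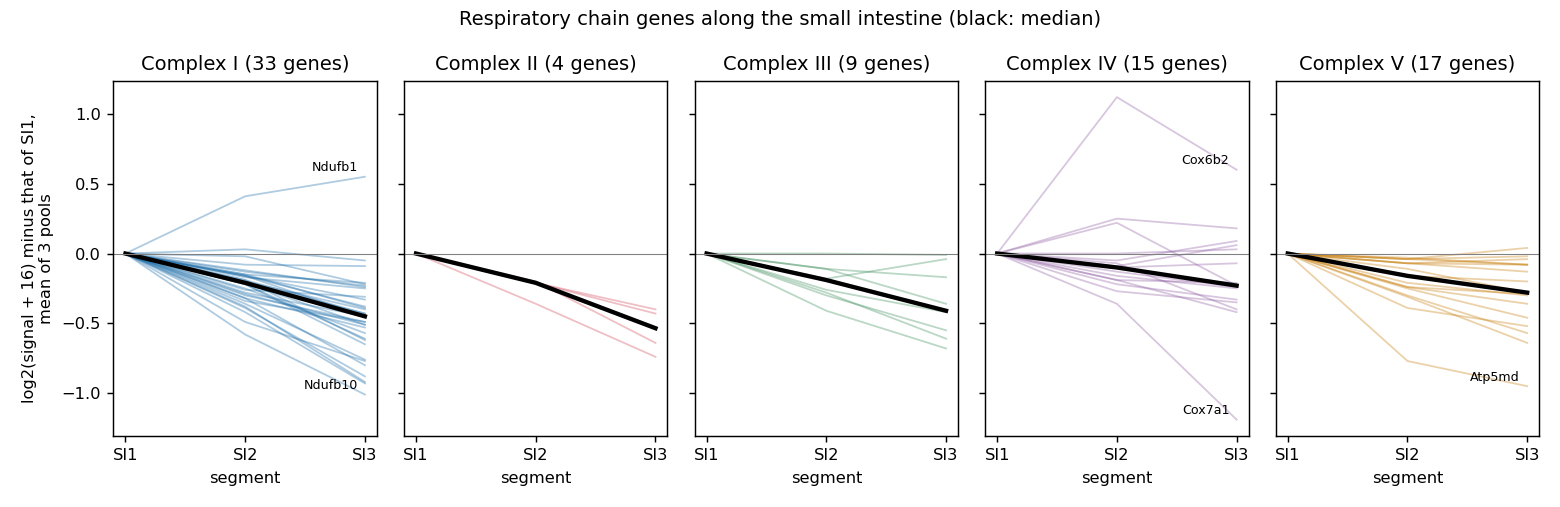
Change relative to SI1 in log2(signal + 16) for each tested gene, 1 panel per complex, as the mean of 3 pools; coloured lines are genes and the black line is the median. In complexes I and II the median falls at both steps, from SI1 to SI2 (-0.21 in each) and on to SI3 (-0.45 and -0.53), while in complex V it goes from -0.16 at SI2 to -0.28 at SI3.

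The fall was spread over both steps. From SI1 to SI2, 14 members were called lower and 1 higher, against 6.92% and 8.07% of all tested probe sets, with a median of -0.19. From SI2 to SI3, 18 were called lower and 0 higher, against 10.8% and 10.4%, with a median of -0.18. Of the 14, 8 belonged to complex I, 1 each to complexes II, III and IV, and 3 to complex V. Of the 18, 12 belonged to complex I, 2 to complex II, 1 to complex III, 3 to complex IV and 0 to complex V. Across the 3 segments together, limma's F test called 44 of the 78 tested members, against 40.7% of all tested probe sets.

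The medians by complex at the second step were -0.22 for complex I, -0.30 for complex II, -0.22 for complex III, -0.09 for complex IV and -0.06 for complex V. Over this step the summed leukocyte markers went from between 4724.4 and 5089.0 to between 2453.8 and 2738.2, with 2 of 4 called lower, and 2 of 6 smooth muscle markers were called lower. Goblet and Paneth markers went from between 95588 and 97694 to between 130789 and 141348, with 4 of 5 called higher. Pancreatic enzyme genes summed to 218.0 to 402.4 in SI2 and 260.2 to 420.5 in SI3, with 1 of 6 called higher. The part of these cells in the second step was not tested. In 55 members SI2 lay wholly below SI1, and in 49 SI3 lay wholly below SI2, as in 16.6% and 18.1% of all tested probe sets. Both steps were called lower in 8 members, against 2.83% of all: Ndufb10, Ndufb6, Ndufa5, Ndufs5, Ndufc1, Ndufb2, Sdhc and Cox7a1. These counts were fragile. Leaving out any 1 pool left 0 called lower from SI1 to SI2 and 1 to 3 from SI2 to SI3, while a variance prior that follows the signal raised them to 35 and 34. Shares over all tested probe sets in these settings are not given here. The counts therefore do not show whether the members moved more than other genes.

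The size of the change varied with the signal of the probe set. Among members with a mean signal under 10000, 34 of 43 fell and the median was -0.45, and among the 35 above it 17 fell and the median was -0.25. Of 16 members with a mean signal of at least 18000, 3 fell, with a median of -0.08. Over all tested probe sets the shares called lower were 19% under 10000 and 27.2% at or above it. Across the 73 members with a mean signal above 1000, the Spearman correlation of signal with change was 0.56, as a description across genes that share the same 9 arrays. Complexes differed in signal too, with median signals of 7473.6 for complex I, 10514 for complex II, 13744 for complex III, 9237.4 for complex IV and 17707 for complex V. Uqcrb reached 76.7% of the highest signal on an array.

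**Figure D3:**
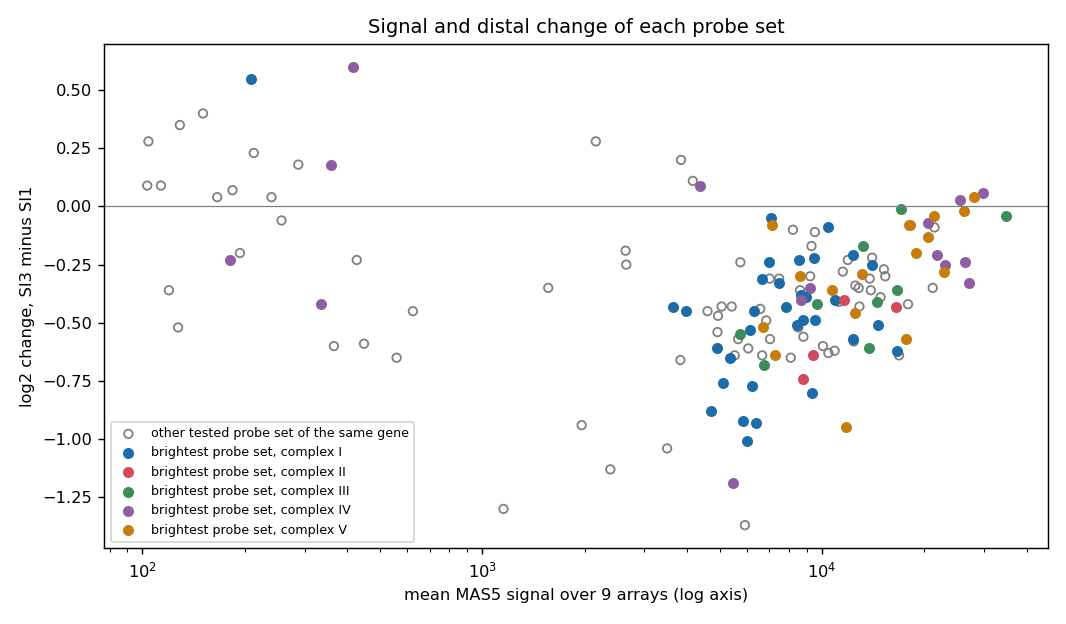
Mean MAS5 signal over 9 arrays (log axis) against the log2 change between SI3 and SI1, with coloured points for the probe set that stands for a gene and open grey points for other tested probe sets of the same genes. Points at the highest signals lie near 0, and many dimmer probe sets of the same genes lie below it.

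Several members were measured by more than 1 probe set. The 30 other tested probe sets of members that did not pass the test included 17 called lower and 0 called higher. For Cox6a1 the second probe set, with a mean signal of 16846 against 29855, changed by -0.64 (adjusted p 0.00207). For Cox6c it changed by -0.60 at 10056, for Uqcrc2 by -0.62 at 10890, for Uqcrb by -0.30 at 9225.8 and for Uqcrh by -0.31 at 13805.3. Other Cox5b sets with signals from 12392.8 to 21165.5 were called lower, with changes from -0.58 to -0.35, and a dim one (150.7) had no call. The second probe set of Atp5o, a peripheral stalk gene, changed by -1.37 at a signal of 5927.4, while its first stood at -0.08. Both other probe sets of Atp5a1 were called lower, at -0.39 and -0.60, and so was that of Atp5d of the central stalk, at -0.28 (adjusted p 0.0372).

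In all, 13 of the 25 members without a call had another probe set that fell, so 64 of 78 (82.1%) had at least 1. Over all 10977 genes with a tested probe set, 25.5% had at least 1 called lower. Of 44 other tested sets of the members that fell, 30 were lower, 14 had no call and 0 were higher. Within complexes, members under a signal of 10000 had medians of -0.47 in complex I (26 genes), -0.29 in complex IV (8 genes) and -0.41 in complex V (4 genes). At or above 10000 the medians were -0.40 in complex I (7 genes), -0.21 in complex IV (7 genes) and -0.20 in complex V (13 genes). Whether the signal range of the array or the transcripts that each probe set reads account for the difference was not tested.

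**Figure D4:**
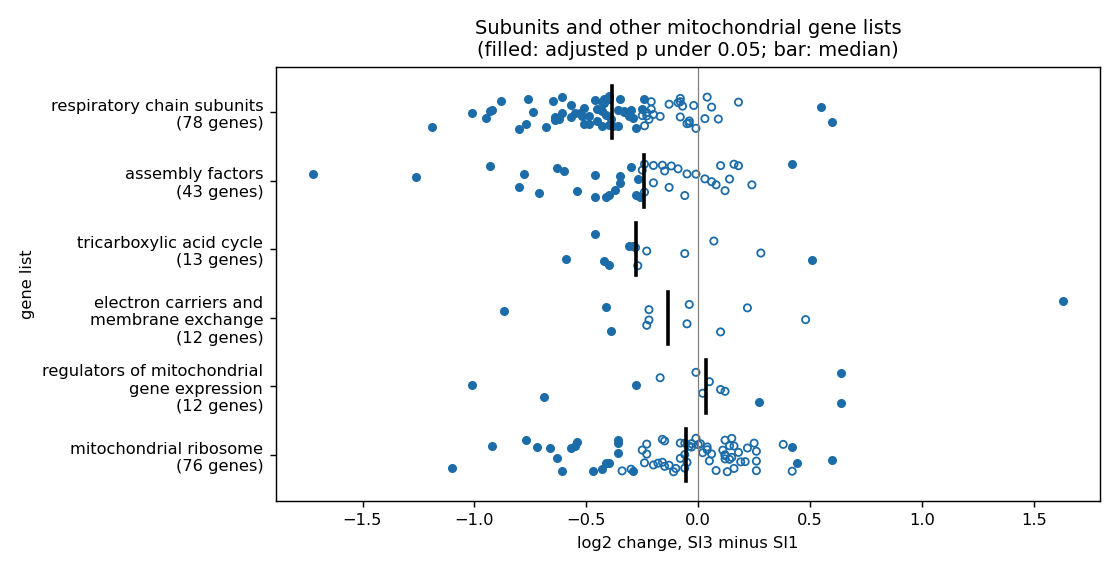
Log2 change between SI3 and SI1 for the tested subunit genes and 5 other mitochondrial gene lists; each point is a gene, filled where it passed the test, and the bar is the list's median. The medians are -0.38 for the subunits, -0.28 for the tricarboxylic acid cycle, -0.24 for assembly factors, -0.13 for carriers, -0.06 for the mitochondrial ribosome and 0.04 for regulators.

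Other genes of mitochondrial respiration were read from written lists. Assembly factors, which build the complexes without staying in them, had 20 of 43 tested genes lower (46.5%, against 19.2% of all tested probe sets) and 1 higher from SI1 to SI3, with a median of -0.24. Sco2, which delivers copper to complex IV, changed by -1.72, from 4411.9 ± 164.7 in SI1 and 4222.5 ± 600.7 in SI2 to 1347.3 ± 279.8 in SI3 (SD, n = 3 pools). Cox15, which makes heme A for complex IV, changed by -0.93, and Ttc19, a complex III factor, rose by 0.42.

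In the tricarboxylic acid cycle, which supplies the NADH, 6 of 13 genes fell (46.2%, against 19.2% of all tested probe sets) and 1 rose. The median was -0.28. Dld, the lipoamide dehydrogenase subunit, changed by -0.59 and Mdh2, malate dehydrogenase, by -0.46, while Idh2, the NADP-linked isocitrate dehydrogenase, rose by 0.51. Among electron carriers and membrane exchangers 3 of 12 fell (25%, near the 19.2% of all tested probe sets). Gpd2 of the glycerol phosphate shuttle fell by 0.87, Etfdh, which passes electrons from fat oxidation to ubiquinone, by 0.41, and Cycs, somatic cytochrome c, by 0.39. Slc25a4, an isoform of the ATP/ADP carrier, rose by 1.63, from 684.7 ± 33.1 to 2157.8 ± 171.5 (SD, n = 3 pools).

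Of 12 regulators of mitochondrial gene expression, 3 fell (25%) and 3 rose, near the 19.2% lower and 25% higher of all tested probe sets. Ppargc1a, the coactivator that drives mitochondrial biogenesis, changed by -1.01 between the ends, with 2323.7 ± 134.1 in SI1, 2350.5 ± 125.4 in SI2 and 1148.1 ± 65.5 in SI3 (SD, n = 3 pools). Ppargc1b, its relative, changed by -0.69 and Polrmt, the mitochondrial RNA polymerase, by -0.28. Nrf1, the factor of the motif above, and Pprc1 each rose by 0.64, and Gabpa, an ETS factor, by 0.27. Of 76 genes of the mitochondrial ribosome, which makes the mitochondrially encoded subunits, 18 fell (23.7%, near the 19.2% of all tested probe sets) and 3 rose, with a median of -0.06. None of the 13 mitochondrially encoded subunit genes was found by symbol on the array, so they were not analysed here.

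The diets were compared within each segment, as the study asked how the type of fat acts on the small intestine. With 1 array per diet and segment there is no replicate check and no p-value. The members differed little between diets. The fold between the highest and lowest of the 3 diets had a median over 78 members of 1.1 in SI1, 1.06 in SI2 and 1.08 in SI3, against 1.2, 1.19 and 1.2 over all tested probe sets. It reached 1.5 in 1, 1 and 4 members. The median signal was 9382.6 for the members and 462.3 for all tested probe sets. Whether the smaller fold of the members goes with their higher signal was not tested.

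**Figure D5:**
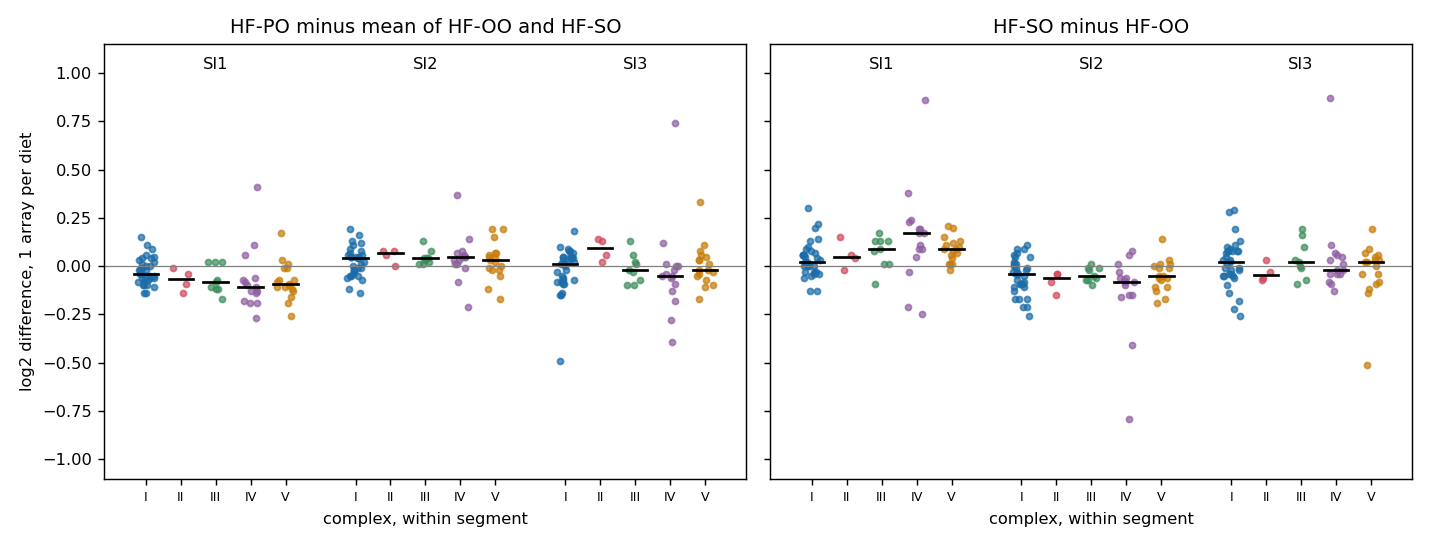
Log2 differences between diets for the 78 tested subunit genes by complex and segment, with HF-PO minus the mean of the other diets in the left panel and HF-SO minus HF-OO in the right; points are genes, bars medians, from 1 array per diet and segment. Medians over all members lie between -0.07 and 0.06, and those of SI1 come to -0.01 (left, quantile normalization) and -0.00 (right, arrays shifted to one median) with another scaling.

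A diet was taken to set a gene apart where the signal was at least 1.5-fold above, or at least 1.5-fold below, those of both remaining diets. In SI1 this held for Cox8c alone, with 288.5 in HF-PO, 241.8 in HF-OO and 450.4 in HF-SO, where 2.01% of all tested probe sets were set apart in HF-SO. In SI2 it held again for Cox8c alone, now highest in HF-OO (343.1, 531.4 and 300.5), against 1.96% of all. In SI3 Cox6b2 was highest in HF-PO (562.2, 323.7 and 338.0) and Cox6a2 in HF-SO (121.8, 117.2 and 227.6), against 2.54% and 1.64%. All 3 are dim isoforms, Cox8c changed diet between segments, and a fold of 2 set apart none of them. Counts of 0 in the remaining diets and segments stood against 1.85% and 1.61% for HF-PO in SI1 and SI2, 1.31% and 1.73% for HF-OO in SI1 and SI3, and 1.39% for HF-SO in SI2.

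Small differences ran the same way in many members of a segment. In SI1 the HF-SO array was the highest of the 3 in 54 of 78 members (69.2%, against 34.4% of all tested probe sets) and the HF-PO array the lowest in 48 (61.5%, against 34.5%). In SI2 the HF-SO array was the lowest in 52 (66.7%, against 31.4%). In SI3 no such side appeared, with HF-SO highest in 33 (42.3%, against 35%) and HF-PO lowest in 31 (39.7%, against 39.6%). The members of a segment share the 3 arrays and are not replicates.

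The median of HF-PO minus the other diets was -0.07 in SI1, 0.04 in SI2 and -0.00 in SI3, quantile normalization brought the SI1 value to -0.01, and shifting the arrays to one median brought the values to -0.02, 0.08 and 0.08. By complex, the SI1 medians ran from -0.04 in complex I to -0.11 in complex IV, and the SI3 medians from -0.05 in complex IV to 0.09 in complex II. The median of HF-SO minus HF-OO was 0.06, -0.06 and 0.01, with 0.17 in complex IV of SI1, and the SI1 and SI2 values came to -0.00 and 0.00 with the arrays shifted to one median.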

How the data were processed

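The deposited values are linear signal intensities, 1 per probe set and array, made by the authors with MAS5, a single-array Affymetrix algorithm, per the submitters' processing notes; its version is not given in the sources used here. The authors' scaling was kept. Of 45101 probe sets, 64 controls were left out. Names came from the platform annotation (34945 probe sets with 1 symbol, 932 with several, 9160 with none here). The 83 members had 170 probe sets with 1 symbol, 10 with several were left out, and the one with the highest mean log2(signal + 16) stood for each gene.

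The 22519 probe sets with a mean of at least the median of all, 6.80, were tested with limma 3.58.1 in R 4.3.3 (linear model of segment and diet pool, empirical Bayes, two-sided, Benjamini-Hochberg over all tested; 4 residual degrees of freedom). Pools are a block, since the labels take all 3 parts of a diet from the same 6 animals. Departures from segment means correlated with r from -0.05 to 0.15 within a pool and from -0.13 to 0.05 between pools. P-values measure how segment differences varied between 3 pools, shrunk towards the spread of all tested probe sets, and not variation between mice. Each pool had another diet, so variation by diet and by pool cannot be told apart. The model was tested on simulated data. Medians, motifs and plots were made in Python 3.11.15 (pandas 2.3.3, numpy 2.4.6; plots with matplotlib 3.10.9).

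Members, lists, tests and alternatives were chosen with earlier results of these data known. The rule for naming genes covered, in each complex, the 3 called members that changed most each way, the cofactor-bearing or catalytic core, the strongest signal, tissue isoforms, members that turned at SI2 and members set apart in a diet. Genes named from the other lists, and the other probe sets and members given with values, were chosen after their values were seen. Alternatives covered the pseudocount (1 or 64), the filter, the block, scaling, the summary of probe sets, the variance prior, the diet fold and each pool left out.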

Additional observations from a re-analysis of the deposited data

How the results depend on the processing

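Without the replicate block, which the shared mice of a pool call for, 54 members were lower from SI1 to SI3 and the 51 were all among them; 21 and 22 were lower at the 2 steps. Without the signal filter, 29 were lower (against 7.6% of all probe sets) and 0 higher from SI1 to SI3, and 0 and 2 were lower at the 2 steps. An intensity trend in the variance prior gave 35 and 34 at these steps. With a pool left out, 29 to 36 were lower (against 12.1% to 14.9% of all tested probe sets) and 0 to 1 higher from SI1 to SI3. At the steps, 0 were lower (in each case) and 0 to 1 higher from SI1 to SI2, and 1 to 3 lower from SI2 to SI3. For the counts at the 2 steps, shares over all probe sets under each alternative are not given here. Of the 51, 50 kept the call with quantile normalization, 47 with arrays shifted to one median and 42 with the mean over a gene's probe sets. Using only members under a signal of 10000, an alternative chosen after seeing the data, moved the SI3 minus SI1 medians to -0.45 over members, -0.69 in complex II, -0.55 in III, -0.29 in IV and -0.41 in V, and the SI3 minus SI2 medians to -0.24 over members, -0.41 in II, -0.28 in IV and -0.11 in V. The mean over probe sets gave -0.37 and -0.20 for the same 2 medians of complex II, and -0.12 for SI3 minus SI2 in complex V. Quantile normalization gave -0.28 and -0.23 in complex IV and -0.13 for SI3 minus SI2 in complex V, and shifted medians gave -0.19 in complex IV (SI3 minus SI1) and -0.02 in complex V (SI3 minus SI2). Leaving out a pool gave -0.23 to -0.18 for complex IV between the ends. Members set apart numbered 7 (no filter), 3 (a lower fold) and 0 (2-fold) in HF-PO, 3 (no filter) and 0 (pseudocount 64, shifted medians, mean over probe sets or 2-fold) in HF-OO, and 1 (pseudocount 64, shifted medians or mean over probe sets) and 0 (2-fold) in HF-SO. For diets, the SI1 median of HF-PO minus the others was -0.01 with quantile normalization, and with shifted medians the SI3 median was 0.08 and that of HF-SO minus HF-OO in SI1 was -0.00. Genes without a call changed sign around 0 between SI1 and SI3: Atp5b (0.02 shifted), Atp5c1 (0.07 mean over probe sets), Atp5g2 (0.27 mean over probe sets), Atp5g3 (-0.04 quantile), Cox4i1 (-0.07 quantile), Cox6a1 (-0.00 quantile, -0.29 mean over probe sets) and Uqcrh (0.03 shifted). With a pool left out, such genes ranged from -0.08 to 0.01 (Atp5b), -0.08 to 0.00 (Atp5c1), -0.12 to 0.01 (Atp5d), -0.06 to 0.14 (Atp5g3), -0.03 to 0.18 (Cox6a1), -0.03 to 0.44 (Cox8c), -0.10 to 0.05 (Uqcrb) and -0.06 to 0.03 (Uqcrh). For some genes, among them Atp5g1, Atp5g2, Sdha, Cox8a and Uqcrq, the mean over probe sets took in sets below the signal filter. The cause of these differences was not tested. Pools of 6 mice and 3 arrays per segment limit every value.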
